A study of Mus musculus with 6 samples.

Results

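This section describes 10 genes that mark mesothelium and ovarian surface epithelium by their cell-surface or secreted products: Upk3b, Upk1b, Msln, Gpm6a, Cd200, Lrrn4, Muc16, Slpi, Thy1 and Cd9. They were taken by symbol from a list drawn up with earlier results of these data known, and each had 1 row among the 35688 gene rows of the deposited table. RNA abundance was measured in the line m1102, which derives from the epithelium on the surface of the mouse ovary, and all cells were grown with fetal bovine serum, ITSS supplement and EGF. The 6 libraries were 3 of untreated cells and 3 of cells that received TGFB1 at 10 ng/mL for 4 days before RNA was collected. All libraries came from this single line, and the labels do not say whether replicates were separate cultures, so the p-values reflect only how far these libraries differ, and that spread may be technical. Values are on the TPM scale (transcript abundance corrected for transcript length and library size), and the read depth behind them is unknown.

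Mesothelium is the epithelium that lines the body cavities and covers the organs in them, and the ovarian surface epithelium is the part of it that covers the ovary. Its cells carry a coat of glycoproteins. Mesothelin (MSLN) sits on the membrane by a lipid anchor and binds the large mucin MUC16, also known as CA125. Uroplakins are membrane proteins best known from the bladder lining, and UPK1B, like CD9, belongs to the tetraspanins, which organise other proteins in the membrane. TGFB1 is a cytokine known for driving matrix production and epithelial-mesenchymal transition.

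After TGFB1, 6 of the 10 genes fell (Slpi, Gpm6a, Thy1, Upk3b, Upk1b and Cd9) and 1 rose (Cd200). Msln, Lrrn4 and Muc16 did not pass the test. The changes ran from a log2 fold change of -3.31 for Slpi to 2.81 for Cd200. All 10 genes passed the filter of a mean of at least 1 TPM, and a gene was called at a limma adjusted p under 0.05. Of all 12257 genes tested, 14.6% were called lower and 15.8% higher. Higher genes made up 52.0% of all calls, and 62.1% when mitochondrial genes and the 20 most abundant others were kept out of the scaling. The untreated and treated values did not overlap for 8 of the 10 genes, against 49.8% of all tested genes. The median log2 fold change was -0.69 over the 10 genes and 0.02 over all tested genes. Without TGFB1 replicate 1, again 6 fell and 1 rose, with 15.9% of all tested genes called lower and 16.3% higher. In bulk RNA, fewer cells that express a gene and less RNA per cell cannot be told apart.

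TGFB1 replicate 1 stood apart from the other treated libraries. For all 10 genes it was the treated library furthest from the untreated mean, as it was for 58.7% of tested genes and 70.0% of called genes. TGFB1 replicates 2 and 3 were close to each other: the median absolute log2 difference between them over the 10 genes was 0.04, against 0.50 and 0.54 between each of them and replicate 1, and from 0.09 to 0.16 between untreated libraries. Results for the 10 genes are therefore given with and without TGFB1 replicate 1, as are some of those for other genes. P-values without it rest on TGFB1 replicates 2 and 3, which lay closer together than any untreated pair. Smaller p-values there are therefore not to be read as stronger evidence.

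**Figure D1:**
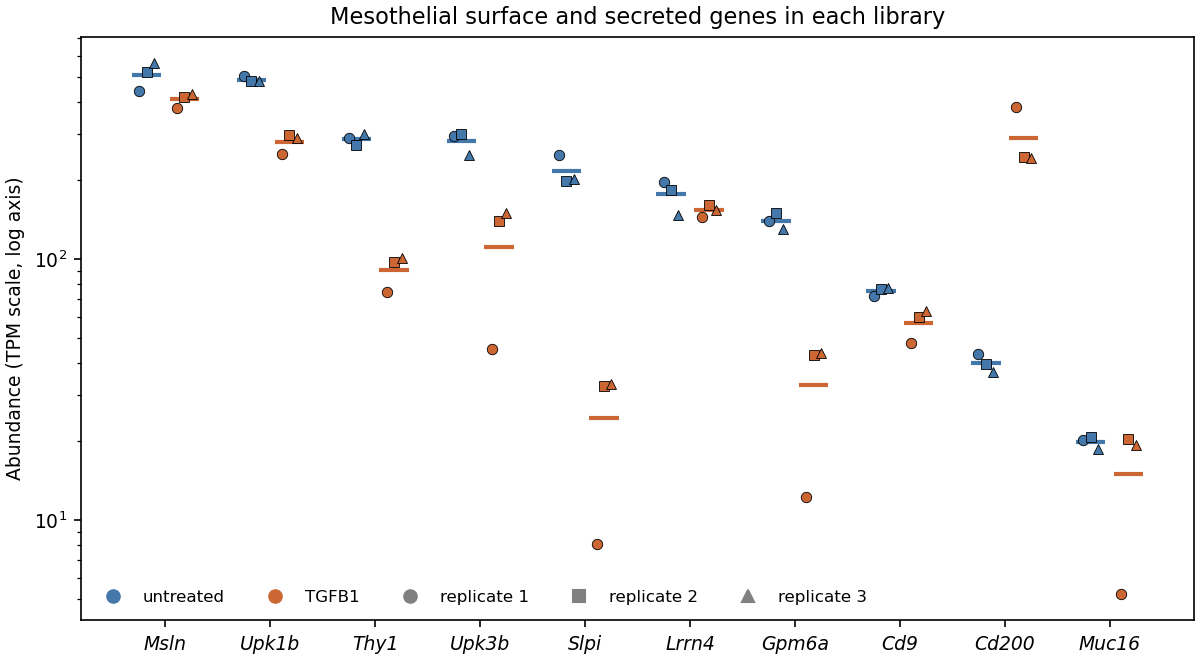
Abundance (TPM scale, log axis) of the 10 genes in each of the 6 libraries, ordered by their untreated mean; points are libraries, marker shapes are replicates, and bars are group means. Cd200 is the gene whose treated values all lie above the untreated ones, and TGFB1 replicate 1 (orange circles) is the outermost treated point for each gene.

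In untreated cells the order of mean abundance was Msln (508 TPM), Upk1b (487), Thy1 (288), Upk3b (283), Slpi (218), Lrrn4 (177), Gpm6a (140.2), Cd9 (75.5), Cd200 (39.9) and Muc16 (19.9). The library ranges of Msln and Upk1b, of Thy1 and Upk3b, of Upk3b and Slpi, and of Lrrn4 and Gpm6a overlapped, so the order within each of these pairs was not larger than the spread. In treated cells the order was Msln (408), Cd200 (291), Upk1b (280.4), Lrrn4 (153), Upk3b (112), Thy1 (90.9), Cd9 (57.0), Gpm6a (32.9), Slpi (24.6) and Muc16 (14.98). Here the ranges of Msln and Cd200, of Cd200 and Upk1b, of Lrrn4 and Upk3b, and of Upk3b and Thy1 overlapped. So did those of Upk3b and Cd9, and those of each pair among Gpm6a, Slpi and Muc16. Cd200 moved from above 66.1% of tested genes to above 95.6%, and Slpi from above 93.9% to above 52.2%. The 10 genes together summed to between 2204 and 2251 TPM in untreated libraries and to between 1352 and 1526 TPM in treated ones.

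The stretches before the RefSeq start sites (build GRCm38.p6) are shown for the gene with the largest fall, the gene that rose and the uroplakin gene with the larger fall, since these are the genes the comparison turns on. RefSeq starts were matched for 7 of the 10 genes, and those of Upk1b, Msln and Thy1 were not. Each window is the 250 bases before the start, read 5′ to 3′ on the gene's strand, and capitals mark motif matches on either strand. The windows are Slpi at chr2:164356508-164356757 (minus strand), Upk3b at chr5:136038246-136038495 (plus strand) and Cd200 at chr16:45409054-45409303 (minus strand).
Slpi: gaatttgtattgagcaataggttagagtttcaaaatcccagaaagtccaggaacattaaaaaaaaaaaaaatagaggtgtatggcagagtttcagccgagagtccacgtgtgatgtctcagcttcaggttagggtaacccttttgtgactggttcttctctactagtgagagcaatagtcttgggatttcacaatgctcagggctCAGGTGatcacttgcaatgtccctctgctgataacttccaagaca
Upk3b: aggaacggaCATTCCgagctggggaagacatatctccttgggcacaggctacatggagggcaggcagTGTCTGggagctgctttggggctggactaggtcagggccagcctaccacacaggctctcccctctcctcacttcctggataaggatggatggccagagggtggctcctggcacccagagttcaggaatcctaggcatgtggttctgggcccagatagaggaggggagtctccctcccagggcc
Cd200: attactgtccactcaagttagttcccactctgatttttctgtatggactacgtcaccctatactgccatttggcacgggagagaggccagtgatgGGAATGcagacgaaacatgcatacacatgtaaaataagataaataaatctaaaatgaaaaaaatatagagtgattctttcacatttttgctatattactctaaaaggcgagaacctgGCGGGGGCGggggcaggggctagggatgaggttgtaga

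Motifs were searched by letters alone on both strands. The Slpi window held the E-box CACCTG, at position -45 from the start, as did 17.2% of all 32817 windows. The Upk3b window held the SMAD half-site CAGACA at -183 (17.1% of windows) and the TEAD motif GGAATG at -241 (12.6%). The Cd200 window held GGAATG at -155 and the WT1 and EGR motif GCGGGGGCG at -38 (2.58% of windows). The palindromic SMAD site GTCTAGAC (0.168% of windows) and the AP-1 motif TGANTCA (6.75%) had no match in the 8 windows of the 7 genes, of which Gpm6a had 2. Over those 8 windows GGAATG matched in 4, CACCTG in 2, and CAGACA and GCGGGGGCG in 1 each. No matches overlapped in the printed windows. A match here is a description of letters and not evidence that a factor binds.

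Of the secreted products, Slpi fell the most. It encodes secretory leukocyte protease inhibitor, which blocks neutrophil elastase and cathepsin G, and it lies on chromosome 2 at 164354070 to 164389095 (minus strand, GRCm38, GENCODE M21). Slpi was at 251, 199.8 and 202 TPM in the untreated libraries and at 8.08, 32.7 and 33.1 TPM in the treated ones. Each treated library was far below each untreated one, and replicate 1 was the lowest. The mean went from 218 ± 29.1 to 24.6 ± 14.3 TPM (SD, n = 3 per group here and throughout), 8.83 times lower (log2 fold change -3.31, SE 0.49, limma adjusted p = 0.00422). Only 3 of the 12257 tested genes had a more negative log2 fold change. Without TGFB1 replicate 1 the log2 fold change was -2.68 (adjusted p = 2.21e-05). The RefSeq start lies 32588 bases inside the M21 gene, counted from its 5′ end, so the window printed above lies within the M21 gene and not before it. The M21 exons of Slpi also overlap the miRNA gene Mir7678, which was not tested. The protease genes that SLPI blocks were near or at the bottom of the scale: Elane averaged 0.0683 TPM in untreated cells and was listed at 0 in treated ones, and Ctsg was listed at 0 in all 6 libraries.

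Gpm6a had the next largest fall. It encodes a multi-pass membrane glycoprotein known from neurons and used as a mesothelial marker, and it lies on chromosome 8 at 54954843 to 55060871 (plus strand). Its values were 139.9, 149.8 and 131 TPM without TGFB1 and 12.2, 42.8 and 43.7 TPM with it. The groups did not overlap, and replicate 1 was again the lowest. The mean was 4.26 times lower with TGFB1 (log2 fold change -2.25, SE 0.45, limma adjusted p = 0.0115). Without TGFB1 replicate 1 it was 3.24 times lower (log2 fold change -1.67, adjusted p = 2.72e-05). The paralog Gpm6b was low in both groups, at 0.503 and 0.441 TPM on average.

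Thy1 encodes a lipid-anchored glycoprotein that also marks fibroblasts and T cells, so it is not specific to mesothelium. The gene lies on chromosome 9 at 44043384 to 44048579 (plus strand). It was at 289, 274 and 299.9 TPM in untreated libraries and at 74.8, 97.1 and 101 TPM in treated ones. Here replicate 1 was lowest too, but by less than for Slpi and Gpm6a. The mean was 3.17 times lower (log2 fold change -1.66, SE 0.12, limma adjusted p = 0.000353), and 2.91 times lower without TGFB1 replicate 1.

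Both uroplakin genes fell. Upk3b, on chromosome 5 at 136038496 to 136046487 (plus strand), was at 297, 301 and 249.8 TPM in untreated libraries and at 45.4, 139 and 149.8 TPM in treated ones. No treated library reached the untreated range, and replicate 1 was about 3-fold below replicates 2 and 3. The mean was 2.53 times lower (log2 fold change -1.51, SE 0.43, limma adjusted p = 0.0377). The call was lost without any one untreated library, with no filter and with no intensity trend (adjusted p up to 0.107). Without TGFB1 replicate 1 the log2 fold change was smaller by over 1.5 times, at -0.96, and was called (adjusted p = 0.000492).

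Upk1b, on chromosome 16 at 38773184 to 38800328 (minus strand), was at 500.3, 481 and 479 TPM in untreated libraries and at 252, 298 and 291 TPM in treated ones. The treated values lay close together and well below the untreated ones. The mean was 1.74 times lower (log2 fold change -0.80, SE 0.07, limma adjusted p = 0.000898). Without TGFB1 replicate 1 the log2 fold change was -0.72 (adjusted p = 0.000107). UPK1B is known to pair with a UPK3 protein in the membrane. The log2 ratio of Upk3b to Upk1b within a library was -0.79 ± 0.14 in untreated cells and -1.50 ± 0.83 in treated ones. The exact two-sided permutation test gave p = 0.1 for this difference, which is the smallest p that 3 libraries against 3 allow (0.15 adjusted over 3 pairs). The adjustment counts the pair of Cd200 and Gpm6a, which was chosen with its direction in these data known. Replicate 1 had a ratio of -2.45, while replicates 2 and 3, at -1.09 and -0.95, lay just below the lowest untreated ratio of -0.94. The difference between the group means was -0.71 with all libraries and -0.24 without TGFB1 replicate 1.

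Cd9 encodes a tetraspanin of many cell types and lies on chromosome 6 at 125460266 to 125494791 (minus strand). It was at 72.4, 76.8 and 77.3 TPM in untreated libraries and at 47.7, 60.2 and 63.1 TPM in treated ones. The groups did not overlap, but the gap between them was narrow. The mean was 1.32 times lower (log2 fold change -0.41, SE 0.11, limma adjusted p = 0.0302). That call was lost with no filter and without any one untreated library or TGFB1 replicate 2 (adjusted p from 0.0523 to 0.0987), and it was kept without TGFB1 replicate 1 (-0.29, adjusted p = 0.0107). Of the 31-mers of its transcripts, 20.1% also occur in other genes, mainly the antisense Gm26728 and the pseudogene Cd9-ps, so its values are uncertain. Cd9-ps was listed at 0 in all 6 libraries. The shared part was 3.64% for Msln, 1.26% for Thy1, 0.464% for Cd200 and 0 for the remaining members.

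Cd200 moved against the others. It encodes an immunoglobulin-family surface ligand whose receptors, on myeloid cells, damp their activity, and it lies on chromosome 16 at 45382135 to 45409053 (minus strand). Its values were 43.2, 39.7 and 36.8 TPM in untreated libraries and 383, 246 and 244 TPM in treated ones. Every treated library was above every untreated one several-fold, and replicate 1 was the highest. The mean was 7.29 times higher with TGFB1 (log2 fold change 2.81, SE 0.18, limma adjusted p = 0.000288), and 6.13 times higher without TGFB1 replicate 1 (2.59, adjusted p = 1.27e-05). Only 26 of the tested genes had a more positive log2 fold change. The receptor gene Cd200r1 was listed at 0 in untreated cells and averaged 0.00927 TPM in treated ones.

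Msln had the highest mean of the 10 genes in both groups, although Upk1b was above it in untreated replicate 1 and Cd200 in TGFB1 replicate 1. It lies on chromosome 17 at 25748613 to 25754378 (minus strand). It was at 439, 521 and 562 TPM in untreated libraries and at 379, 419 and 427 TPM in treated ones. All treated values lay below all untreated ones, by a small margin. The mean was 1.24 times lower and did not pass the test (log2 fold change -0.31, 95% interval from -0.54 to -0.07, limma adjusted p = 0.0570). The blocked fit, in which libraries with the same replicate number are compared, called it lower (adjusted p = 0.0176), as did median-of-ratios scaling (0.0455) and the fit without untreated replicate 1 (0.0238). These were the only 3 of 16 alternatives to call Msln, and the limma adjusted p reached 0.167 in the others. Without TGFB1 replicate 1 its log2 fold change was -0.26 and not called (adjusted p = 0.0962).

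Lrrn4, on chromosome 2 at 132868305 to 132880891 (minus strand), encodes a leucine-rich repeat membrane protein used as a mesothelial marker. It was at 198, 184 and 148 TPM without TGFB1 and at 145, 161 and 154 TPM with it. The groups overlapped, because untreated replicate 3 lay among the treated values. The log2 fold change was -0.19 (95% interval from -0.46 to 0.08, limma adjusted p = 0.239), and without untreated replicate 3 it was -0.32 and called (adjusted p = 0.0478). Without TGFB1 replicate 1 it was -0.15 and not called (adjusted p = 0.379).

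Muc16, on chromosome 9 at 18495455 to 18674530 (minus strand), encodes the transmembrane mucin that binds mesothelin. It was at 20.2, 20.8 and 18.8 TPM in untreated libraries and at 5.22, 20.4 and 19.4 TPM in treated ones. TGFB1 replicates 2 and 3 lay inside the untreated range, and replicate 1 alone was low, 3.81 times below the untreated mean. The log2 fold change was -0.58 (95% interval from -1.65 to 0.48, limma adjusted p = 0.363). Without TGFB1 replicate 1 it was -0.0028, with an interval from -0.18 to 0.17. The log2 ratio of Msln to Muc16 within a library was 4.60 ± 0.23 in untreated cells and 4.87 ± 0.92 in treated ones (exact two-sided permutation p = 0.9, also 0.9 after adjustment), and the difference of 0.28 turned to -0.25 without TGFB1 replicate 1.

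**Figure D2:**
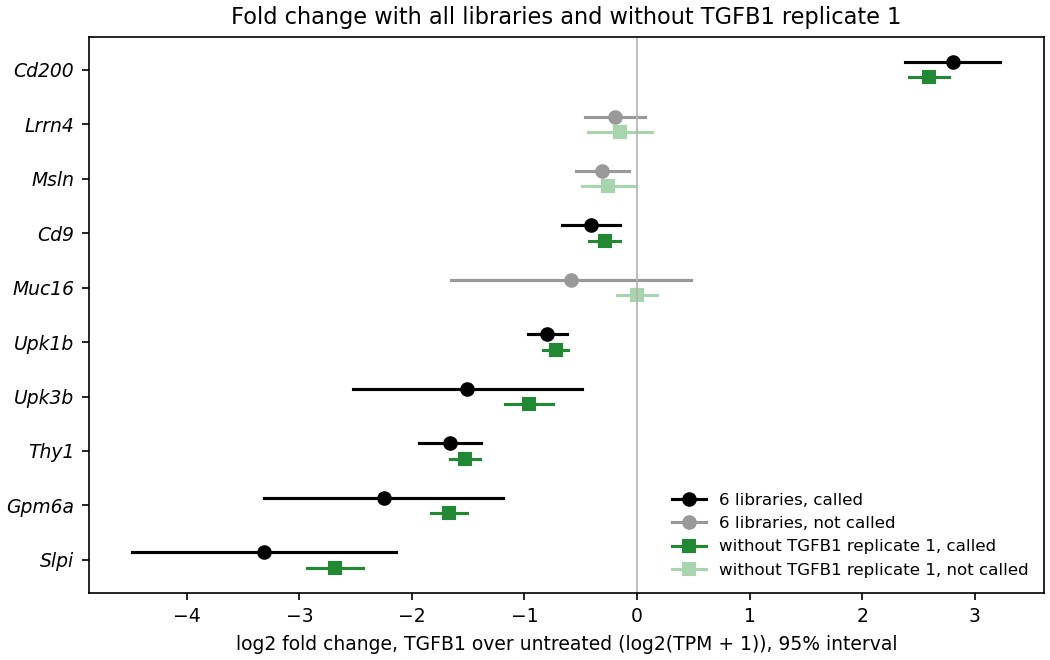
Log2 fold change with its 95% interval (x axis) for each of the 10 genes, with all 6 libraries (circles) and without TGFB1 replicate 1 (squares); pale symbols did not pass an adjusted p of 0.05. Intervals of Slpi, Gpm6a, Upk3b and Muc16 are wide with replicate 1 and narrow without it, and Cd200 is the only gene to the right of 0.

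Cd200 and Gpm6a were paired because they had gone opposite ways in earlier results of these data, so their ratio describes these genes alone. The log2 ratio of Cd200 to Gpm6a was -1.67, -1.89 and -1.80 in untreated libraries and 4.86, 2.49 and 2.45 in treated ones. Gpm6a was the more abundant of the pair in every untreated library and Cd200 in every treated one.

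**Figure D3:**
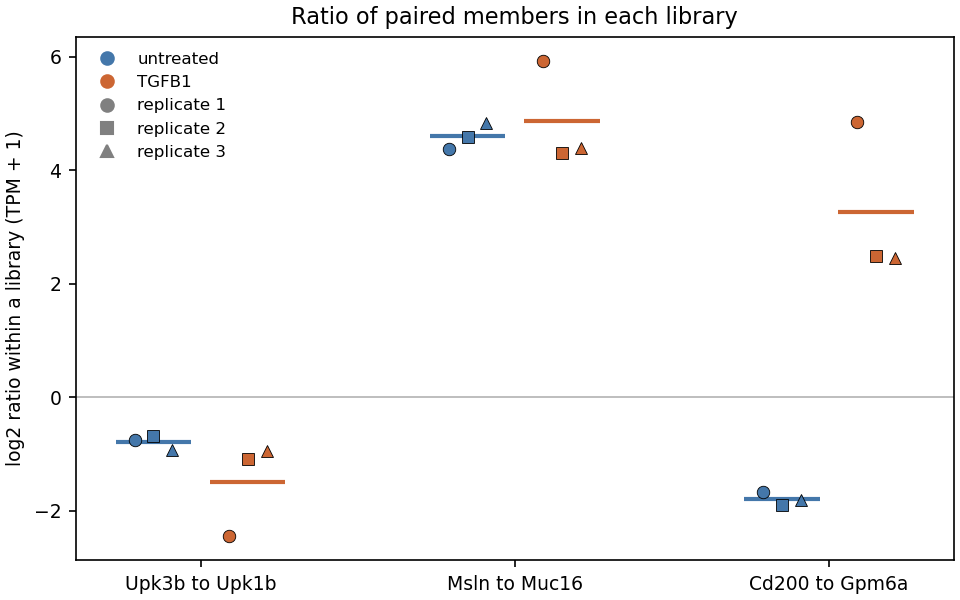
Log2 ratio of 3 pairs of genes within each library (y axis, TPM + 1); points are libraries and bars are group means. The Cd200 to Gpm6a ratio is below 0 in each untreated library and above 0 in each treated one, while TGFB1 replicate 1 lies far from replicates 2 and 3 in all 3 pairs.

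Several of the 10 genes were the main expressed genes of their families. The other uroplakin genes, Upk1a, Upk2, Upk3a and Upk3bl, stayed below 1 TPM in every library, with a highest value of 0.998 TPM for Upk1a. None of 11 other genes for inhibitors with a WAP domain, the fold of SLPI, reached more than 0.385 TPM (Wfdc3), and 6 of them were listed at 0 throughout. Of 12 other mucin genes 1 reached 1 TPM in a library (Muc1, 1.30 TPM). Tetraspanins were the exception: 20 of 27 others were tested, and Cd63, a tetraspanin of lysosomes and exosomes, averaged 2203 TPM in untreated cells.

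**Figure D4:**
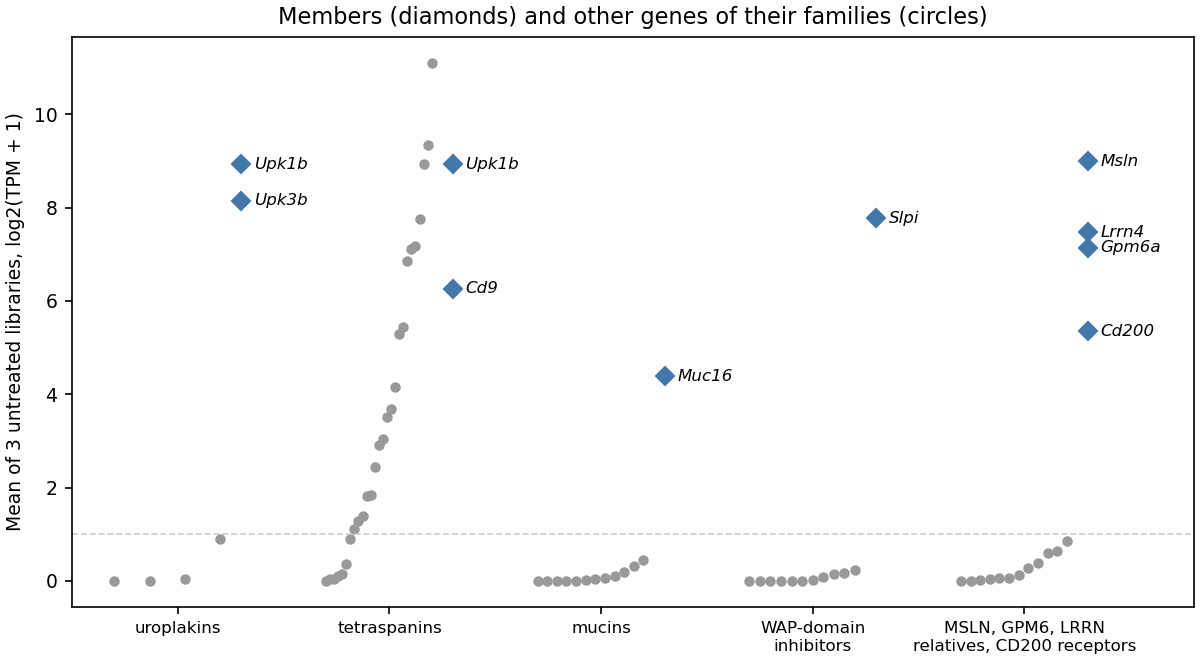
Mean abundance in the 3 untreated libraries, as log2(TPM + 1) (y axis), of the named genes (diamonds) and of other genes of their families (circles), with a dashed line at 1 TPM. Outside the tetraspanins each named gene stands above the line and each relative below it.

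Among the 20 other tetraspanin genes tested, 7 fell, 5 rose and 8 did not pass, with a median log2 fold change of -0.10. Over all tested genes 14.6% were called lower and 15.8% higher, with a median of 0.02. The 5 calls higher went down to 3 without untreated replicate 1 or 3 or without TGFB1 replicate 2 or 3. Over all tested genes the calls higher went down from 1937 to 1189, 1121, 1310 and 1433 in these fits. Cd63 fell to 1539 ± 22.9 TPM (log2 fold change -0.52, limma adjusted p = 0.000939) and Tspan4 from 214 ± 8.55 to 107 ± 21.3 TPM. Cd53, a leukocyte tetraspanin gene, had a log2 fold change of -1.46 and Tspan8 of -1.13, both from under 3 TPM. Tspan6 rose from 6.78, 7.31 and 7.52 TPM to 36.5, 33.1 and 32.7 TPM (log2 fold change 2.10, adjusted p = 0.000101), the treated libraries lying close together and far above the untreated ones. Tspan12 rose too (log2 fold change 1.21).

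Genes for known binding partners of the 10 products were listed too. Of 11 tested, 6 rose and 2 fell, with a median log2 fold change of 0.28. Over all tested genes 15.8% were called higher and 14.6% lower, with a median of 0.02. The integrin chain gene Itgb1 went from 472 ± 29.0 to 988 ± 96.9 TPM (log2 fold change 1.06, limma adjusted p = 0.000539). Chains of integrins that bind THY1 rose as well: Itgb5 had a log2 fold change of 1.30 and Itgb3 of 1.26. Hbegf, an EGF-family growth factor gene whose membrane form associates with CD9, rose from 17.9 ± 1.65 to 53.9 ± 29.5 TPM (log2 fold change 1.42, and 1.01 without TGFB1 replicate 1). Cd81, the tetraspanin most often found with CD9, averaged 648 ± 7.93 TPM untreated and 556 ± 77.2 TPM treated, a difference that missed the threshold (adjusted p = 0.135). The calls of Hbegf and Itgb3 were lost when any single untreated library was left out. Without untreated replicate 2 or 3, 3 partners were called higher, and the partners called lower, Sdc4 and Itga3, no longer passed. Over all tested genes these fits called 1352 and 1121 higher, against 1937 with all libraries. They called 1121 and 915 lower, against 1788.

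Other mesothelium and ovarian surface genes were read beside the 10. Of 35 listed, 23 were tested: 10 fell, 2 rose and 11 did not pass. Their median log2 fold change was -0.71, near the -0.69 of the 10 genes. Over all tested genes 14.6% were called lower and 15.8% higher, with a median of 0.02. The complement gene C3 fell from 51.0 ± 10.9 to 7.38 ± 3.08 TPM (log2 fold change -2.69) and Nkain4, a sodium pump interacting protein gene, from 53.7 ± 5.39 to 16.1 ± 8.56 TPM (-1.84). The keratin gene Krt7 fell from 337 ± 39.5 to 149 ± 31.8 TPM (-1.19) and Igfbp6, for an IGF-binding protein, had a log2 fold change of -1.64. The genes that rose were Sulf1, a heparan sulfatase gene (log2 fold change 0.82), and Nr5a1, for a gonadal transcription factor (0.25). Wt1, for a transcription factor of mesothelium, was at 194, 176 and 172 TPM without TGFB1 and at 103, 164 and 164 TPM with it, which missed the threshold (limma adjusted p = 0.175). Calb2, a further mesothelial marker gene, was listed at 0 in all libraries. Leaving out untreated replicate 1 gave 6 lower and 1 higher, and leaving out TGFB1 replicate 1 gave 13 lower and 2 higher. Over all tested genes the first of these fits called 1129 lower and 1189 higher of 12264. The second called 1951 lower and 1992 higher of 12243. The calls of Nkain4 and Igfbp6 were lost when any single untreated library was left out, and that of Nr5a1 without untreated replicate 1 or 3 or TGFB1 replicate 2 or 3.

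**Figure D5:**
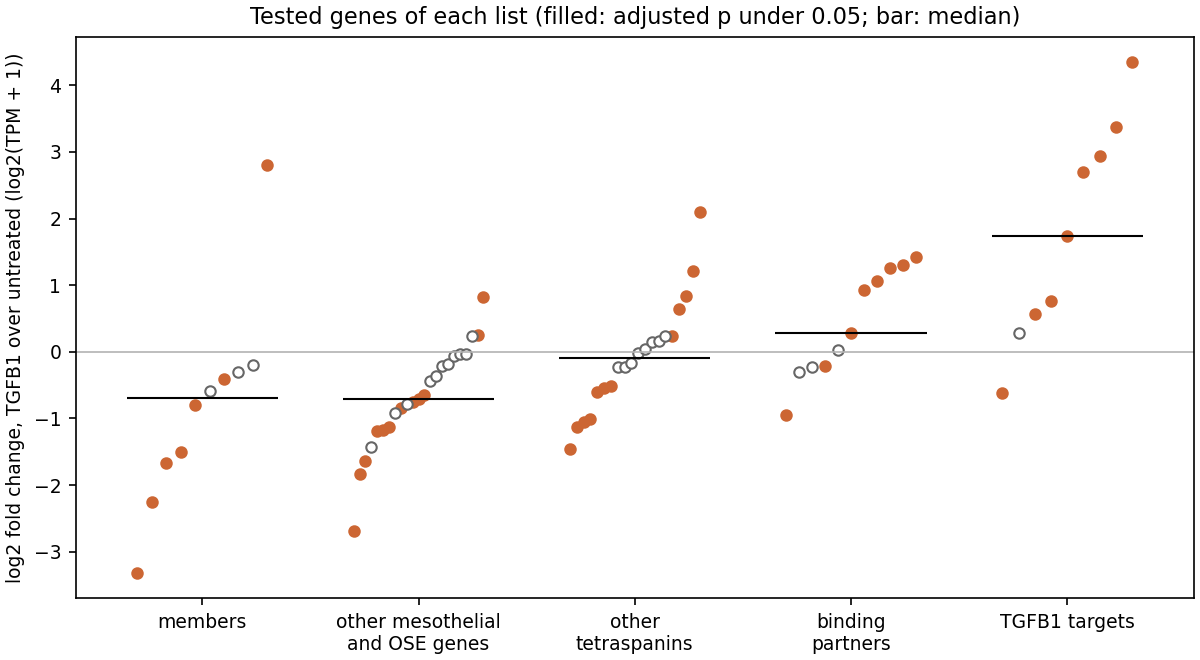
Log2 fold change (y axis) of each tested gene in 5 lists; filled points have an adjusted p under 0.05 and bars are list medians. The 10 members and the other mesothelial genes have medians of -0.69 and -0.71, the tetraspanins -0.10 and the binding partners 0.28.

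Each of the 10 genes was also matched to the tested gene with the most similar profile within a restricted set. The other members were left out, as were genes with predicted, clone-like, mitochondrial or pseudogene symbols. Similarity was measured as the smallest root mean square difference of centred log2(TPM + 1) values over the 6 libraries. The match for Upk3b was Rspo1, a WNT agonist gene of the ovarian surface (difference 0.07), whose values of 57.0, 60.8, 54.0, 8.65, 29.1 and 33.3 TPM showed the same low TGFB1 replicate 1. Upk1b was nearest to Snrpg (0.02), Gpm6a to the interferon-induced Gbp2 (0.06), Thy1 to Phospho1 (0.05) and Cd9 to the calponin gene Cnn3 (0.03). Cd200 was nearest to the matrix protease gene Adamts4 (0.13) and Slpi to the cytochrome gene Cyp2s1 (0.22), the least close match of the 10. Msln was nearest to Tmem173 (0.03), Lrrn4 to Slc25a35 (0.03) and Muc16 to Syt10 (0.12), which was also low in replicate 1 alone, at 4.27 TPM against 16.2 and 16.3 TPM.

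Response to the treatment and the make-up of the libraries were checked on fixed lists. Of 9 tested genes known as TGFB1 targets 7 rose, among them Col1a1 (log2 fold change 4.35) and Lox (2.95), and Ltbp2 fell, though without untreated replicate 2 or 3 Ltbp2 did not pass. Their summed level went from between 759 and 832 TPM to between 2688 and 5519 TPM, the highest in TGFB1 replicate 1. Markers of other cell types moved as follows, and their part in the results above was not tested. Endothelial markers summed to at most 2.88 TPM in any library, with 6 of 7 below 1 TPM throughout, and those of oviduct and other Müllerian epithelium to at most 4.88 TPM, with 5 of 8 below 1 TPM and Epcam listed at 0. Immune markers summed to between 19.4 and 27.2 TPM in untreated libraries and to between 8.37 and 11.1 TPM in treated ones, nearly all of it Cd68 (22.7 ± 4.09 and 8.79 ± 1.42 TPM), with 6 of 8 below 1 TPM, while Ptprc averaged 0.0739 and 0.0447 TPM. Fibroblast markers summed to between 1788 and 1966 TPM and then to between 1175 and 1217 TPM, with 3 of 8 below 1 TPM and Pdgfrb averaging 0.00742 and 0.478 TPM. Of the 4 tested, Dcn fell from 1362 ± 112 to 616 ± 28.0 TPM (log2 fold change -1.14), while Col3a1 (0.30), Pdgfra (0.25) and Col1a2 (0.04) did not pass, and Col3a1 was called higher without TGFB1 replicate 1 (0.39, limma adjusted p = 0.0230). Smooth muscle markers went from between 2475 and 3228 TPM to between 3775 and 5214 TPM, with 2 of 6 below 1 TPM throughout and Myh11 averaging at most 0.0120 TPM. Tagln rose from 1264 ± 191 to 2467 ± 536 TPM (limma adjusted p = 0.00733). Cnn1 rose from 1.26 ± 0.728 to 5.90 ± 3.26 TPM (adjusted p = 0.0182), a call lost with no filter and without untreated replicate 1 or 2. Acta2 (adjusted p = 0.0998) and Des (0.0693) did not pass, and Des was called higher without TGFB1 replicate 1 (0.00562). The sums for steroidogenic cells went from between 282 and 328 TPM to between 79.8 and 183 TPM, nearly all of it Star, with 4 of 6 below 1 TPM. Those for granulosa cells went from between 36.9 and 40.3 TPM to between 36.2 and 37.5 TPM, with 4 of 8 below 1 TPM and Fshr listed at 0. Among them Foxl2 rose from 18.5 ± 1.15 to 22.7 ± 0.549 TPM (limma adjusted p = 0.0265) and Inha fell from 16.9 ± 1.06 to 9.83 ± 2.27 TPM (adjusted p = 0.0152). The Foxl2 call was lost without untreated replicate 1 or 3 or TGFB1 replicate 2 or 3, and the Inha call without untreated replicate 2 or 3.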

How the data were processed

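The series holds 6 poly(A)-selected RNA libraries of the line m1102, and the labels gave the groups and replicate numbers. The authors deposited 1 table with 1 column of signal on the TPM scale per library, with totals from 983434 to 1026702, so it is not plain TPM. Per the submitters' processing notes, kallisto 0.44.0, sleuth 0.30.0 and build GRCm38 were used. The role of each tool, the annotation, the strand setting and any scaling step were not given in the sources used here. Because it has no counts, the depth is unknown and counting error could not be stated.

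Each column name matched 1 sample's group and replicate. The filter was a mean over all libraries of 1 TPM or more, which 12257 genes passed. On log2(TPM + 1) values, limma 3.58.1 (R 4.3.3; lmFit, eBayes with trend) was run without a replicate block, with two-sided p-values adjusted by Benjamini-Hochberg over all tested genes. Fold changes on this scale understate changes of low genes. Where a symbol had several rows, the one with the highest mean was used. Pair ratios used exact permutation tests. The named genes are the 10 members, up to 4 called genes of each list with the largest change, defining markers, the nearest profiles and flanking genes. Further list genes (Cd81, Wt1, Ctsg, Elane, Gpm6b, Cd200r1, Col3a1, Pdgfra, Col1a2, Foxl2, Inha, Cd63, Tspan4, Sulf1, Nr5a1, Ltbp2, Itga3, Calb2) were named after their values were seen. So were the family genes Upk1a, Upk2, Upk3a, Upk3bl, Wfdc3 and Muc1. The members and lists were chosen with earlier results of these data known. Coordinates are GENCODE M21 (GRCm38), which held 35101 of the 35688 gene IDs; shared 31-mers were counted in its transcripts, on both strands, with Python 3.11.15. Promoter windows are RefSeq, GRCm38.p6. Protein features planned at the start were not analysed here. The fit was tested on simulated data. Alternatives were other pseudocounts (0.1 and 5), filters, scalings, no trend, a replicate block, removal of repeated rows and leaving out each library.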

Additional observations from a re-analysis of the deposited data

How the results depend on the processing

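Over 16 alternatives, Cd200 was called higher and Slpi, Gpm6a, Thy1 and Upk1b were called lower in each; no member's log2 fold change changed sign. Of the 10 members 1 was higher throughout, and between 4 (no filter, or without untreated replicate 2) and 7 (median-of-ratios scaling, or with a replicate block) were lower. Over all tested genes, 1313 of 22740 were lower with no filter and 1121 of 12271 without untreated replicate 2. Median-of-ratios scaling gave 1903 of 12257 lower and the replicate block 1924 of 12257. With each library left out, calls over all genes ran from 1121 to 1992 higher and from 915 to 1951 lower. Higher genes made up 52.0% of calls as deposited and 62.1% when columns were scaled to equal totals leaving out mitochondrial genes and the 20 genes of highest mean. The log2 ratio difference of Msln to Muc16 ran from -0.25, without TGFB1 replicate 1, to 0.57; the cause was not tested beyond leaving that library out. The replicate block called 1906 genes higher and 1924 lower. The numbers were not taken as pairs because the labels do not say that equal numbers mark shared cultures. Deviations of same-numbered libraries correlated at 0.20, 0.15 and -0.04. The 0.20 between the libraries numbered 1 was the highest of all pairings, while TGFB1 replicate 3 was closest to untreated replicate 2 (0.18). Depth is unknown, so low values such as those of the absent relatives carry no stated precision.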

Other observations

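The tested genes that flank each of the 10 members on its chromosome were read from the same limma fit, as a description. Of 20 flanking genes 9 were called lower and 1 higher, with a median log2 fold change of -0.19. The 14.6% and 15.8% of all tested genes called lower and higher are the background for these counts. Usp2, a deubiquitinase gene whose start lies 23.6 kb from that of Thy1, fell from 13.7 ± 2.14 to 3.70 ± 1.53 TPM (adjusted p = 0.00496), with a log2 fold change of -1.69, close to the -1.66 of Thy1. Plekhg6, 114 kb from Cd9, fell from 4.50 ± 0.606 to 1.80 ± 0.542 TPM (log2 fold change -0.99). Sdc4, the syndecan-4 gene 54.8 kb from Slpi, fell from 309.7 ± 31.2 to 165 ± 50.2 TPM (log2 fold change -0.95), a call that was lost when any single untreated library was left out. B4galt4, a galactosyltransferase gene 58.1 kb from Upk1b, went from 51.0 ± 1.44 to 31.2 ± 8.17 TPM (adjusted p = 0.0273). Its log2 fold change was -0.73, near the -0.80 of Upk1b. On the other side of these members, Nectin1 beside Thy1 (0.16, adjusted p = 0.139) and Igsf11 beside Upk1b (0.26, adjusted p = 0.452) did not pass. Tomm34 beside Slpi did not pass either (0.15, adjusted p = 0.183), while Ndufa9 beside Cd9 was called lower (-0.28, adjusted p = 0.0139). The tested neighbours of Cd200, Gm6030 and Abhd10, lay 204 kb and 334 kb away and did not pass (log2 fold changes -0.62 and -0.04), so its rise was not shared by them at the threshold used. The gene higher beside a member was Zfp558, a zinc finger gene 196 kb from Muc16 (log2 fold change 0.40, adjusted p = 0.0421).

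Pairs of members that share a chromosome lay far apart: Upk1b and Cd200, which moved in opposite directions, are 6.58 Mb apart on chromosome 16, Muc16 and Thy1 25.4 Mb apart on chromosome 9, and Lrrn4 and Slpi 31.5 Mb apart on chromosome 2.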
